A study of Mus musculus with 6 samples.

Results

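Of 74076 open chromatin peaks listed for mouse liver, 1077 have an olfactory or vomeronasal receptor gene as their nearest gene start. They were chosen by the gene name that the deposited table gives each peak (Olfr, Vmn1r or Vmn2r), with no use of the measured signal. The Olfr genes, which encode the odorant receptors of the main olfactory epithelium, account for 417 of these peaks. The Vmn1r and Vmn2r genes, which encode the receptors of the vomeronasal organ, account for 160 and 500. Together the peaks carry 434 gene symbols. A nearest start can lie at any distance, so the name gives a position and not a regulatory link.

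The peaks come from ATAC-seq, which marks open DNA by where a transposase can insert sequencing adapters, on nuclei from whole liver of male C57BL/6J mice aged 8 weeks. The refed group (replicates 5, 7 and 8) had no food for 12 h from 10 am and then 12 h of a diet with 69% sucrose and 10% fat. The fasted group (replicates 1, 3 and 4) had no food for 12 h from 10 pm, and every mouse was killed at 10 am. The hours of the fast differ between the groups along with feeding and diet, so these cannot be told apart. The labels name no altered allele in either group. They do not say whether the libraries are from separate mice, so the p-values reflect only the variation among the 6 libraries, which may be technical.

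In each olfactory sensory neuron a single olfactory receptor gene is normally transcribed, from 1 of its alleles, while the others lie in compact heterochromatin. Most of these genes sit in large clusters with many relatives, poor in other genes and rich in LINE-1 (L1) retrotransposons, repeats that spread through an RNA copy. Liver is made mostly of hepatocytes, where these clusters are not known to be active as a class. RNA was not analysed here, so whether any of the 434 genes was transcribed in these livers was not measured.

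Each library held 3238712 to 4679316 reads within listed peaks in the refed group and 3205634 to 4850613 in the fasted group. The fasted library with the fewest reads was replicate 3 and the refed one was replicate 7. A median peak held 20 to 31 reads in refed libraries and 19 to 33 reads in fasted libraries. The deposited values are RPKM, reads divided by peak width and by the library's total in listed peaks, and whole reads were recovered from them. A peak without a read is not at 0 in the deposited table but at the value of 0.9 reads. Markers of hepatocytes had a peak at 12 of 12 genes, each with a peak in its promoter. Markers of olfactory sensory neurons had a peak at 10 of 10 genes, but in the promoter at 3 of them.

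Of 16 receptor genes with a promoter-class peak, or a first-exon peak within 1 kb of the start, 13 have promoter letters in the RefSeq table for GRCm38.p6, and 5 of these hold TAATTA. Letters are shown for those whose start peak is described further on because it was called, was the strongest promoter peak of its family, or was among the nearest to a start. The peaks are on mm9, whose sequence was not used here, and the offsets of peaks from starts are those of the deposited table. Each run is the 250 bases before the gene start, 5′ to 3′ on the gene's strand. Capitals mark TAATTA, a core letter sequence of homeodomain factors such as Lhx2, which binds olfactory receptor promoters and enhancers. Another motif, TCCC followed 2 bases later by GGGA, is bound by the EBF (O/E) factors and was in none of these runs.
Vmn2r3: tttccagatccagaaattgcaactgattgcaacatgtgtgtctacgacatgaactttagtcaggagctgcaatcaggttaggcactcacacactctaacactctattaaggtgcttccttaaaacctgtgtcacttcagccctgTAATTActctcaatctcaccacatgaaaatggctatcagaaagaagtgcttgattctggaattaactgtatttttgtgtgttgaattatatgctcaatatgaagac
Olfr978: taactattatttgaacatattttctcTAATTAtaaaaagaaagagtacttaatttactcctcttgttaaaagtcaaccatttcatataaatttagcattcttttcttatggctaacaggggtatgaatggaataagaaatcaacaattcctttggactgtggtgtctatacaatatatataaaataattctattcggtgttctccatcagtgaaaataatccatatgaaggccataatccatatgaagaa
Olfr90: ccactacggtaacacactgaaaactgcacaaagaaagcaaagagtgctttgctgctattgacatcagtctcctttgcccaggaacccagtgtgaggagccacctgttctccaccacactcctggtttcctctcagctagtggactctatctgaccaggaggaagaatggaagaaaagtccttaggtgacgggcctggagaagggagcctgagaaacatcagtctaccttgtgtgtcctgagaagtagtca
Vmn2r29 first start: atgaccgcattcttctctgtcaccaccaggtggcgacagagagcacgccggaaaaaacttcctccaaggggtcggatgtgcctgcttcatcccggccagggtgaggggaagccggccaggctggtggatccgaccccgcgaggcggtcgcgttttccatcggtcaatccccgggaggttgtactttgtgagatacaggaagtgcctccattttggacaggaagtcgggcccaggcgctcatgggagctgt
Vmn2r29 second start: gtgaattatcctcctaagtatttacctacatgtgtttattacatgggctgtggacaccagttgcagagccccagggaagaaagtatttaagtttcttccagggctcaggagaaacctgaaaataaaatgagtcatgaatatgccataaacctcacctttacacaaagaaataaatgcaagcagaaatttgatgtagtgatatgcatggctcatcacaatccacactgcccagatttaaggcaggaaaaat
The run for Vmn2r3 is chr3:64287418-64287667 on the minus strand, and the listed peak reached from 435 to 5 bases before the start, so that it covers the single TAATTA at -106. For Olfr978, at chr9:39993562-39993811 on the plus strand, the promoter peak lay farther out, 543 to 301 bases before the start, and the TAATTA at -224 lies between that peak and the start. The run of Olfr90, at chr17:37086237-37086486 on the minus strand, holds no TAATTA, and its peak lay 111 to 707 bases past the start. Vmn2r29 has 2 RefSeq starts, at chr7:7278290-7278539 and chr7:7247329-7247578 on the minus strand. The first of these runs is 60.8% G and C with 17 CpG pairs, and the second is 39.2% with 0. Which of them is the start used by the deposited table was not determined. The peak there covered the first exon of a non-coding transcript of the gene, with its centre 180 bases past the start.

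Receptor promoters as a class are poor in G and C. The median over 1272 receptor windows of 250 bases was 34.8%, against 52.4% over all 32851 promoter windows of the same length. CpG pairs were absent from 40.6% of receptor windows and from 7.87% of all windows. TAATTA stood in 16.1% of receptor windows and in 4.84% of all windows, read on both strands since the motif is its own reverse complement. The EBF motif, which is also its own reverse complement, stood in 0.314% and 0.779%. Among receptor windows the share with TAATTA was 15.8% for genes that own a listed peak and 16.3% for genes that own none. RefSeq windows were found for 365 of the 434 genes, and a match is a description of letters, not of binding.

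Few receptor genes own a listed peak at all. Of 1465 protein-coding receptor genes in RefSeq, 427 (29.1%) were the nearest gene of a peak, against 78.6% of 20435 other protein-coding genes. The share was 24.0% for Olfr, 35.5% for Vmn1r and 63.7% for Vmn2r genes. With at least 60 reads in a peak over the 6 libraries, a mean of 10 a library, 182 receptor genes (12.4%) were left.

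Receptor peaks lay in intergenic DNA and in repeats more often than other peaks. The intergenic class held 93.8% of them and 42.5% of other peaks. The promoter class of the annotation held 9 receptor peaks (0.836%), against 12.6% of other peaks. A median of 31.0 kb separated a receptor peak from its assigned start, and 348 lay beyond 100 kb. Repeats held 693 (64.3%) receptor peaks, against 25.9% of other peaks. L1 elements made up most of this with 397 peaks (36.9%, against 10.7% of other peaks). ERVK elements, a class of endogenous retroviruses, held 127 (11.8%, against 3.21%). Transcripts of genes outside the receptor families covered 13 of the receptor peaks.

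Few reads were counted at most receptor peaks. No read fell in 377 of them (35.0%) in any library, against 3356 of 72999 other peaks (4.60%). At the other end, 282 (26.2%) held at least 60 reads over the 6 libraries, against 82.5% of other peaks. The median was 10 reads in total, against 158 reads for other peaks. On the RPKM scale the median was 1.27 for receptor peaks and 15.8 for other peaks, where the first value is partly set by the 0.9 reads entered for empty peaks. Over all of their peaks the families differed in the same order by both measures. Empty peaks were 16.1% of Olfr, 28.8% of Vmn1r and 52.8% of Vmn2r peaks, and the median totals were 39, 14 and 0 reads. Chromosome X held 340 of the 500 Vmn2r peaks, with 230 of the 264 empty ones, and no Vmn1r peak. Off chromosome X the empty share of Vmn2r peaks was below that of Vmn1r peaks.

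**Figure D1:**
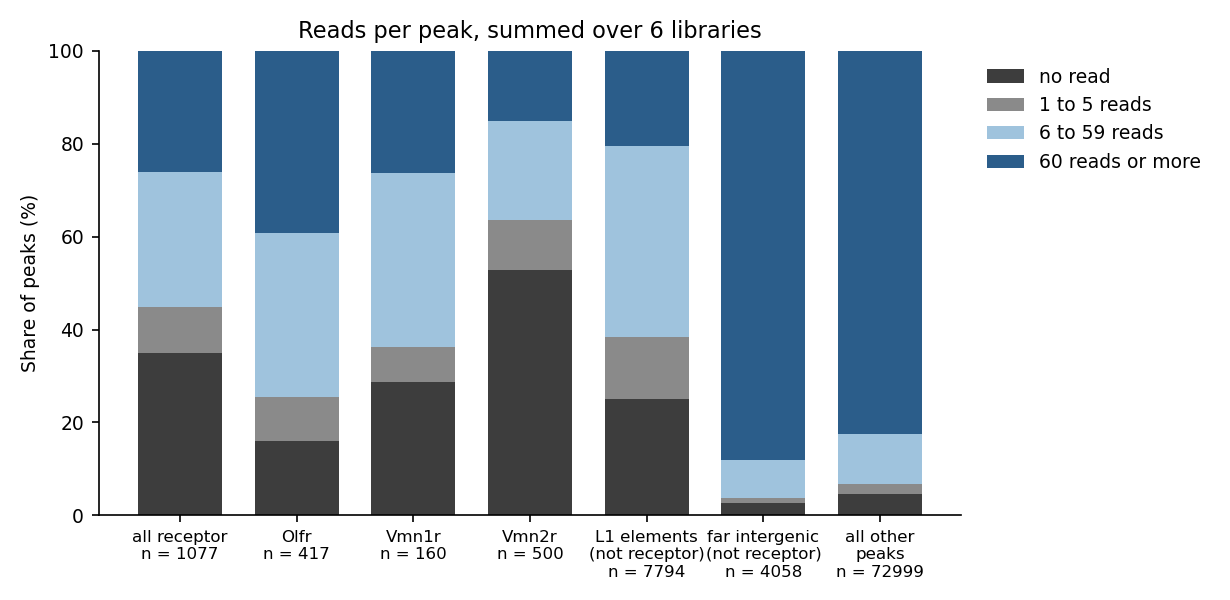
Share of peaks (vertical axis, percent) with no read, 1 to 5, 6 to 59, or 60 or more reads summed over the 6 libraries, for all receptor peaks, each receptor family and peaks outside the families. The dark band of peaks with no read takes 35.0% of receptor peaks and 52.8% of Vmn2r peaks, against 4.60% of all other peaks. Most of the empty Vmn2r peaks lie on chromosome X.

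L1 peaks outside the receptor families held more reads than those inside. The 7794 L1 peaks nearest other genes had a median of 11 reads and 25.1% were empty, against 5 reads and 37.0% for the 397 receptor L1 peaks. Over all young L1Md elements, 33.6% of 277 receptor peaks and 31.3% of 5818 other peaks were empty, and the subfamilies differed. For L1Md_T the empty share was 33.0% of 91 receptor peaks and 38.6% of 2761 other peaks, and for L1Md_F2 it was 29.3% of 41 receptor peaks and 4.26% of 399 other peaks. Over all other L1 elements, 45.0% of 120 receptor peaks and 6.88% of 1976 other peaks were empty. Only uniquely placed reads were kept by the authors, per the file headers, and close copies of a repeat share few unique letters. Its part in the empty peaks was not tested. Intergenic peaks of other genes, outside repeats and more than 100 kb from their assigned start, were well read, with a median of 139.5 reads and 2.64% empty. Receptor peaks outside repeats and off chromosome X, 228 in all, had a median of 90.5 reads, 12.2 RPKM and 10.96% empty.

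Chromosome X held 351 receptor peaks (32.6%), of which 232 were empty, and nearly all belonged to a pair of Vmn2r genes. Vmn2r121 alone owned 222 peaks between 121264107 and 122276783, with 183 empty, and the pseudogene Vmn2r-ps159 owned 118 peaks between 120738900 and 121217543, with 47 empty. Peaks were packed at 219 per Mb over the Vmn2r121 stretch, against 14.3 per Mb for the other peaks of chromosome X. The reads of Vmn2r121 lay at 1 end: its 22 peaks with at least 60 reads all fell between 121264107 and 121325251, and the 3 strongest held 2494 of its 4581 reads. Genes outside the families on either side showed empty peaks as well, 40.6% of 138 for Cldn34c1 and 63.2% of 106 for 4932411N23Rik. Off chromosome X, 145 of 726 receptor peaks were empty (20.0%).

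Another dense group of receptor peaks stood at the first listed positions of 3 chromosomes. Within 500 kb of the first peak, Olfr161 owned all 26 peaks on chromosome 16, Vmn1r2 and Vmn1r3 owned 22 of 31 on chromosome 4, and Vmn1r238 owned 9 of 17 on chromosome 18. Of these 57 peaks 5 were empty (8.77%), and 43.9% held at least 60 reads. The peaks of Olfr161 reached 552624 bases from its start.

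Median signal was higher among receptor peaks that lay near the promoter of a gene outside the families. For 7 and 26 receptor peaks within 20 kb and at 20 to 50 kb from a promoter peak of another gene, the median was 15.6 and 15.9 RPKM. From 50 to 100 kb it was 6.19 RPKM over 57 peaks, and from 100 to 200 kb 3.66 RPKM over 106. From 200 kb to 1 Mb it was 1.61 RPKM over 550 peaks, and beyond 1 Mb 0.890 RPKM over 331, of which 63.7% were empty. Off chromosome X the last bin held 109 peaks with a median of 3.17 RPKM, above the 2.65 RPKM of 429 peaks in the bin before, so the medians did not keep falling there. Peaks outside the families also had lower medians farther out, at 22.8 RPKM within 20 kb and 14.6 RPKM at 100 to 200 kb. Their median was 13.0 RPKM from 200 kb to 1 Mb and 6.61 RPKM beyond 1 Mb. Of these other peaks 1.43% were empty within 20 kb and 14.7% beyond 1 Mb, so a fall with the gap was not particular to receptor peaks. The share in repeats moved with the gap, at 38.5% of receptor peaks from 20 to 50 kb and 68.0% from 200 kb to 1 Mb, and its part was not tested.

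**Figure D2:**
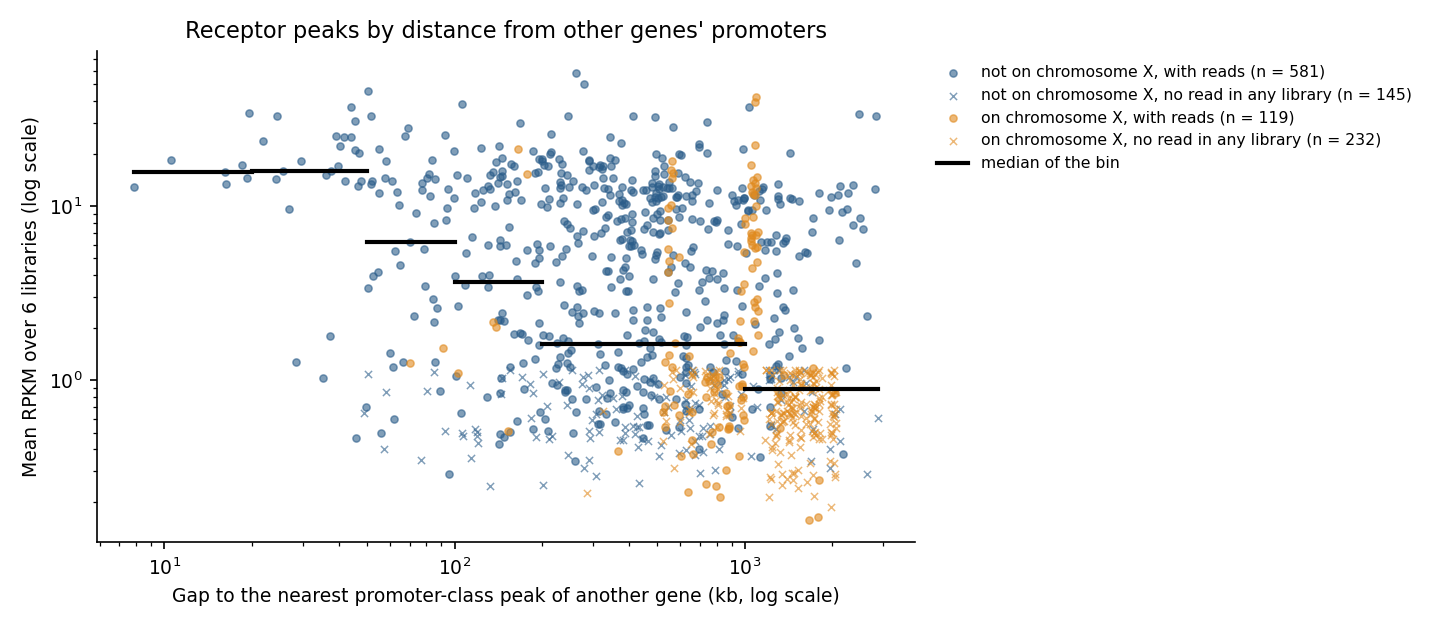
Mean RPKM over 6 libraries (vertical, log scale) of each receptor peak against the gap to the nearest promoter-class peak of another gene (kb, log scale), with crosses for peaks without a read and black bars for the median of each bin. The bars lie at 15.6 and 15.9 RPKM in the 2 bins within 50 kb and at 0.890 RPKM beyond 1 Mb, where most peaks are empty ones on chromosome X.

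A minority of receptor peaks had as much signal as other liver peaks. The strongest, 44858 bases before Vmn2r87 on chromosome 10 (129978819 to 129979767), had 64.3, 61.8 and 53.1 RPKM in refed replicates 5, 7 and 8, against 57.6, 53.6 and 57.7 RPKM in fasted replicates 1, 3 and 4. The groups overlapped there (log2 change 0.08 ± 0.10 SE, limma adjusted p = 0.787). The peak nearest Olfr726 on chromosome 14 (50681377 to 50682601) had 62.2, 56.0 and 50.1 RPKM in refed libraries, against 49.5, 36.9 and 45.9 RPKM in fasted libraries. It lies in a repeat annotated as large-subunit ribosomal RNA, and all refed values stood above all fasted values without passing the test (log2 change 0.35 ± 0.13 SE, limma adjusted p = 0.204). The peak nearest Olfr31 (chromosome 14, 15126848 to 15127634), in an endogenous retrovirus 50223 bases from the promoter peak of the cytokine receptor gene Il3ra, had 50.5, 53.4 and 48.6 RPKM in refed libraries. In fasted libraries it had 45.3, 32.1 and 45.4 RPKM, again below every refed value without passing (limma adjusted p = 0.275).

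Vmn2r121 supplied the next strongest pair, at the read-rich end described above. The peak from 121307044 to 121308952 had 41.5, 50.0 and 42.8 RPKM in refed libraries, against 34.0, 47.4 and 38.1 RPKM in fasted libraries. Its neighbour from 121304468 to 121304784 had 43.1, 52.6 and 33.0 RPKM in refed libraries, against 34.5, 37.4 and 36.3 RPKM in fasted libraries. Both overlapped between the groups (limma adjusted p = 0.620 and 0.556). The strongest Vmn1r peak lay in an endogenous retrovirus near Vmn1r66 on chromosome 7 (10834323 to 10835009), with 41.8, 22.0 and 28.3 RPKM in refed libraries, against 40.2, 24.5 and 40.9 RPKM in fasted libraries. Its spread within a group was larger than the difference between groups (limma adjusted p = 0.770).

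At receptor gene starts the signal was moderate. The strongest Olfr promoter peak, 35 bases before Olfr1033 (chromosome 2, 85860480 to 85861045), had 23.7, 19.6 and 18.9 RPKM in refed libraries, against 27.3, 16.5 and 21.6 RPKM in fasted libraries. That of Olfr658 on chromosome 7, centred 21 bases past the start, had 18.0, 18.9 and 19.6 RPKM in refed libraries, against 13.1, 19.1 and 18.4 RPKM in fasted libraries. Both lay below the median of promoter peaks of other genes, 36.3 RPKM, and above that of all other peaks, 15.8 RPKM, and their groups overlapped. Vmn2r29, over the exon described beside its sequences, had 32.8, 38.2 and 37.9 RPKM in refed libraries, against 30.3, 33.6 and 33.2 RPKM in fasted libraries (limma adjusted p = 0.639). Olfr90 had a peak over its single exon (chromosome 17, 37222474 to 37223070) with 10.8, 6.72 and 9.67 RPKM in refed libraries, against 15.9, 16.7 and 9.01 RPKM in fasted libraries. The only Vmn2r promoter peak, that of Vmn2r3, had 14.4, 12.9 and 20.8 RPKM in refed libraries, against 7.65, 2.17 and 8.51 RPKM in fasted libraries. All its refed values stood above all fasted values, from 26, 18 and 42 reads against 16, 3 and 15, and limma did not call it (log2 change 1.59 ± 0.50 SE, adjusted p = 0.147), while edgeR did (adjusted p = 0.0298). No Vmn1r peak fell in the promoter class. The other promoter-class peaks, singled out for that class after values were seen, were those of Olfr52, Olfr659, Olfr874, Olfr978, Olfr1290 and Olfr1367, with means from 6.01 to 13.5 RPKM over 6 libraries.

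Refed libraries placed a larger share of their reads in receptor peaks than fasted libraries did. The share was 0.280%, 0.275% and 0.273% in refed replicates 5, 7 and 8, against 0.238%, 0.236% and 0.237% in fasted replicates 1, 3 and 4. The groups did not overlap, and their means were 0.276 ± 0.004% and 0.237 ± 0.001% (SD, n = 3 each), a ratio of 1.17. In the Olfr family the refed shares ran from 0.154% to 0.168%, against 0.131% to 0.147% in fasted libraries. For Vmn2r they ran from 0.0775% to 0.0829% in refed and from 0.0650% to 0.0697% in fasted libraries. Vmn1r shares overlapped, at 0.0340% to 0.0384% in refed and 0.0264% to 0.0355% in fasted libraries. No test was made of a share over members. Whole tissue was used, so a change within cells and a change in the mix of cells cannot be told apart.

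The same shares were taken for peaks that have features in common with the receptor peaks. L1 peaks nearest other genes took 1.41% to 1.46% of refed reads, against 1.26% to 1.30% of fasted reads, with no overlap. Far intergenic peaks outside repeats took 3.19% to 3.87% of refed reads and 2.88% to 3.67% of fasted reads, with overlap. Promoter peaks of other genes had a ratio of 0.983, refed over fasted, as did the peaks of Cyp1, Cyp2 and Cyp3 genes, also a clustered family but active in liver. Receptor peaks in repeats took 0.127% in each refed library, against 0.104%, 0.104% and 0.106% in fasted libraries. Outside repeats they took 0.147% to 0.154% of refed reads, against 0.131% to 0.134% of fasted reads. Among receptor peaks under a mean of 10 reads, the shallowest library of each group had the largest share, 0.0454% in refed replicate 7 and 0.0376% in fasted replicate 3. In fasted libraries this share fell with depth, at 0.0376%, 0.0304% and 0.0257% in replicates 3, 4 and 1. In refed libraries it did not fall throughout, as the deepest, replicate 8, had 0.0408%, above the 0.0354% of replicate 5. The groups overlapped, since fasted replicate 3 stood above refed replicate 5. The ratio of refed over fasted means was 1.30 for these receptor peaks and 1.20 for other peaks under a mean of 10 reads. Receptor peaks with a mean of at least 10 reads had 0.230% to 0.245% in refed libraries, against 0.198% to 0.213% in fasted libraries, without overlap. The part of repeats and depth in the difference was not tested.

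**Figure D3:**
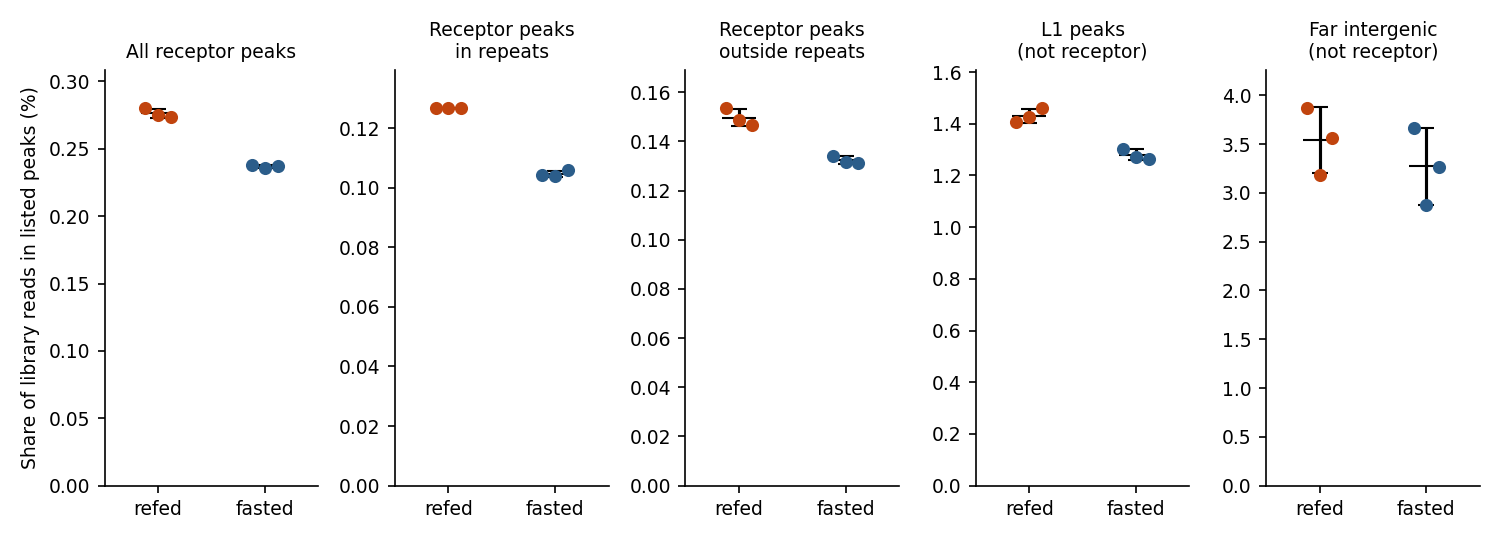
Share of each library's reads in listed peaks (percent, axes from 0) for refed (left, red) and fasted (right, blue) libraries, with the mean and SD over 3 libraries in black. Refed points lie above fasted points for all receptor peaks, receptor peaks in and outside repeats, and L1 peaks outside the families, and overlap for far intergenic peaks.

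Peak by peak, few receptor sites passed the test. Limma called 7 receptor peaks higher in refed liver (0.650%), against 0.802% of all peaks, and 0 lower, against 0.427% of all peaks. At an unadjusted p under 0.05 there were 81 higher (7.52%, against 8.91% of all peaks) and 14 lower (1.30%, against 5.64%). All refed values stood above all fasted values at 94 receptor peaks (8.73%, against 10.5% of all peaks) and below them at 17 (1.58%, against 8.57%). Over peaks that hold a read, the higher shares turned round, at 11.6% of 700 receptor peaks and 9.38% of all 70343 by unadjusted p, and 13.4% and 11.02% by the order of all values. The lower shares did not turn round, at 2% of receptor peaks and 5.94% of all by unadjusted p, and 2.43% and 9.03% by the order. Among the 700 receptor peaks with a read, the median log2 change was 0.25, against 0.01 over all peaks with a read and 0.20 over L1 peaks nearest other genes. With quantile normalization the receptor median stayed above that of all peaks, by 0.12. With edgeR it was above by 0.23, over only the peaks that edgeR's filter kept, 296 of them receptor peaks. Over all 1077 receptor peaks the median was 0.00, the value that every empty peak shares.

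On the recovered reads edgeR tested 296 of the receptor peaks. It called 10 higher (3.38%, against 2.58% of peaks tested) and 4 lower (1.35%, against 1.43%). DESeq2 gave an adjusted p for 239 of them and called 4 higher (1.67%, against 0.981% of peaks) and 2 lower (0.837%, against 0.577%). The authors' deposited table of edgeR results lists 12 receptor peaks as higher (1.11%, against 2.81% of all peaks) and 5 as lower (0.464%, against 1.66%). These counts share their libraries, and the shares depend on which peaks are counted, since a peak without reads cannot be called. Among peaks with a mean of at least 10 reads a library, limma called 4 of 282 receptor peaks higher (1.42%) and 546 of 60205 other peaks (0.907%). In the authors' deposited table these were 12 of 282 (4.26%) and 1979 of 60205 (3.29%). The order for higher peaks is thus the opposite of that over all peaks. For lower peaks receptor shares were the smaller, at 0 of 282 against 0.515% in limma and 1.77% against 2.01% in the authors' deposited table. In DESeq2 the lower share was the larger in receptor peaks, and limma fitted to only these peaks called 1 lower. All these receptor counts are small and near the shares of other peaks, and neither order was tested.

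**Figure D4:**
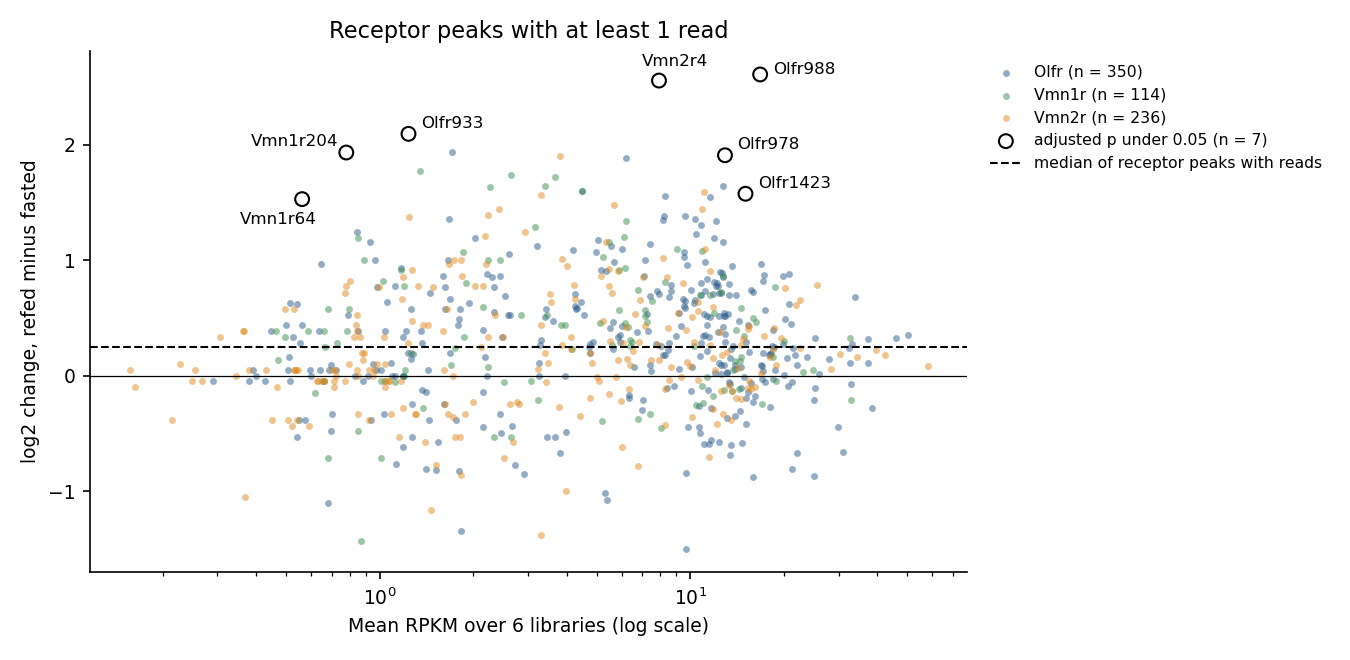
Log2 change, refed minus fasted, of each receptor peak with at least 1 read (700 peaks, coloured by family) against its mean RPKM over 6 libraries (log scale). Circles mark the 7 called peaks, all above 0, of which Vmn1r64, Vmn1r204 and Olfr933 lie at the low end of the scale, and the dashed line marks the median of 0.25.

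The clearest change was at Olfr988. This intergenic peak on chromosome 2 (85191540 to 85192158), 2232 bases past the gene start, had 35.2, 25.4 and 25.9 RPKM in refed libraries, against 5.33, 4.03 and 4.74 RPKM in fasted libraries. Every refed value was more than 4 times any fasted value, from 91, 51 and 75 reads against 16, 8 and 12. The log2 change was 2.61 ± 0.31 (SE, limma adjusted p = 0.00290; edgeR 2.74e-06). Leaving out any 1 library kept the call, with adjusted p from 0.00192 to 0.0278. In RefSeq the nearest genes outside the families are Lrrc55 and Fads2b, with 1 and 4 receptor genes between.

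Vmn2r4 had a peak 10.4 kb before its start on chromosome 3 (64224055 to 64224609) with 22.0, 10.6 and 8.47 RPKM in refed libraries, against 2.60, 1.69 and 2.20 RPKM in fasted libraries. The groups stood apart, though refed replicate 5 was over 2 times the other refed values (log2 change 2.56 ± 0.50 SE, limma adjusted p = 0.0286; edgeR 0.00112). The Olfr978 promoter peak on chromosome 9 (39800854 to 39801096) had 16.8, 26.7 and 17.6 RPKM in refed libraries, against 7.64, 3.85 and 5.03 RPKM in fasted libraries. Its log2 change was 1.91 ± 0.38 (SE, limma adjusted p = 0.0285; edgeR 0.0103), on 17, 21 and 20 reads against 9, 3 and 5. A second Olfr978 peak, from 39799505 to 39800058, had 35.4, 22.3 and 23.1 RPKM in refed libraries, against 19.0, 12.9 and 11.9 RPKM in fasted libraries, and did not pass (limma adjusted p = 0.111; edgeR 0.0412).

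Olfr1423 on chromosome 19 owned 6 peaks, none of them empty, on the side where RefSeq places Osbp, an oxysterol-binding protein gene, with no receptor gene between. The outermost (12076753 to 12077149) had 21.1, 21.0 and 25.3 RPKM in refed libraries, against 7.27, 9.43 and 6.16 RPKM in fasted libraries. All refed values were at least 2 times any fasted value, and it was called (log2 difference 1.58 ± 0.29 SE; adjusted p 0.0236 in limma, 0.00201 in edgeR). The closest intergenic peak assigned to Osbp itself (12070274 to 12070977) averaged 31.3 ± 2.4 RPKM in refed and 10.5 ± 3.0 RPKM in fasted liver (SD, n = 3 each; limma adjusted p = 0.0110). At the Osbp promoter the means were 95.7 ± 21.8 RPKM in refed and 98.2 ± 20.8 RPKM in fasted liver, and limma did not call it (adjusted p = 0.995).

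The remaining 3 called peaks all lay in L1Md elements and held few reads. Olfr933 (chromosome 9, 38772162 to 38772832) had 5, 4 and 7 reads in refed libraries, against 1, 2 and 0 in fasted libraries. Vmn1r204 (chromosome 13, 22640915 to 22641646) had 3, 3 and 5 reads in refed libraries, against 0, 0 and 1 in fasted libraries. Vmn1r64 (chromosome 7, 5811403 to 5812278) had 3, 2 and 4 reads in refed libraries, against 1 in each fasted library. Relative to each library's reads in peaks, the ratios of refed over fasted were 5.36 (1.53 to 28.7) for Olfr933, 11.05 (1.61 to 475) for Vmn1r204 and 3.01 (0.752 to 17.3) for Vmn1r64. These are exact 95% intervals of the counts alone, and the last of them holds 1. Limma's adjusted p were 0.0489, 0.0175 and 0.0259, and edgeR's filter removed all 3 peaks. With limma fitted without the peaks that held no read, the adjusted p were 0.0753, 0.0441 and 0.0731, so of these only Vmn1r204 kept its call. Calls on fewer than 10 reads a library made up 3 of 7 among receptor peaks and 50 of 910 among all peaks. Most receptor peaks, 795 of 1077, are under that mean. The share called among such peaks was alike, at 3 of 795 receptor peaks (0.377%) and 47 of 12794 other peaks (0.367%).

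Apart from Olfr988 each call was lost when 1 or another library was left out. Without fasted replicate 4 or without refed replicate 8 the other 6 were lost, with limma adjusted p from 0.0749 to 0.217 and from 0.0670 to 0.144. Over all peaks the 594 higher calls fell as well, to 181 without fasted replicate 4 and to 77 without refed replicate 8. Without refed replicate 5 the calls of Olfr1423, Olfr933, Olfr978, Vmn1r64 and Vmn2r4 were lost (adjusted p from 0.0571 to 0.122), and without refed replicate 7 those of Olfr1423, Olfr933, Olfr978 and Vmn2r4 (0.0737 to 0.125). Without fasted replicate 1 those of Olfr933 (0.111) and Vmn1r64 (0.0606) were lost.

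Toward lower signal in refed liver, no receptor peak was called by limma. A block of 4 Olfr541 peaks on chromosome 7 is described whole because of its values, which were seen first. They lie between Olfr541 and Cyp2e1, which encodes an alcohol-metabolising cytochrome P450 of liver and is the next gene in RefSeq. The first (147893306 to 147894246) had 12.2, 18.1 and 16.6 RPKM in refed libraries, against 28.7, 25.5 and 26.8 RPKM in fasted libraries. The second (147903043 to 147903878) had 21.5, 32.1 and 19.2 RPKM in refed libraries, against 39.0, 41.4 and 32.2 RPKM in fasted libraries. The third (147906916 to 147907458) had 14.6, 20.5 and 17.7 RPKM in refed libraries, against 25.8, 41.4 and 30.2 RPKM in fasted libraries. In the fourth (147911354 to 147911740), an L1 element, the values were 9.28, 11.2 and 13.3 RPKM in refed libraries, against 20.8, 18.5 and 22.1 RPKM in fasted libraries.

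At each of the 4 every refed value was below every fasted value, by log2 changes of -0.81 ± 0.21, -0.66 ± 0.19, -0.87 ± 0.21 and -0.88 ± 0.26 (SE). None passed in limma (adjusted p = 0.0789, 0.120, 0.0651 and 0.119). EdgeR called the first 3 (adjusted p = 0.00819, 0.0344 and 0.0243) and not the fourth (0.0677), and the authors' deposited table lists all 4. Cyp2e1 itself had a called intronic peak (147960035 to 147960663) with 7.94 ± 2.36 RPKM in refed and 31.2 ± 6.0 RPKM in fasted liver (SD, n = 3 each; limma adjusted p = 0.00651). A peak at its transcript end was also called lower (limma adjusted p = 0.0294). Its promoter peak averaged 26.7 ± 4.3 RPKM in refed and 26.1 ± 3.6 RPKM in fasted liver and did not pass (limma adjusted p = 0.999). Intergenic peaks assigned to Cyp2e1 between the block and that promoter were not called. Their log2 changes were 0.04, -0.54 and -0.14 (limma adjusted p = 0.999, 0.439 and 0.886).

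**Figure D5:**
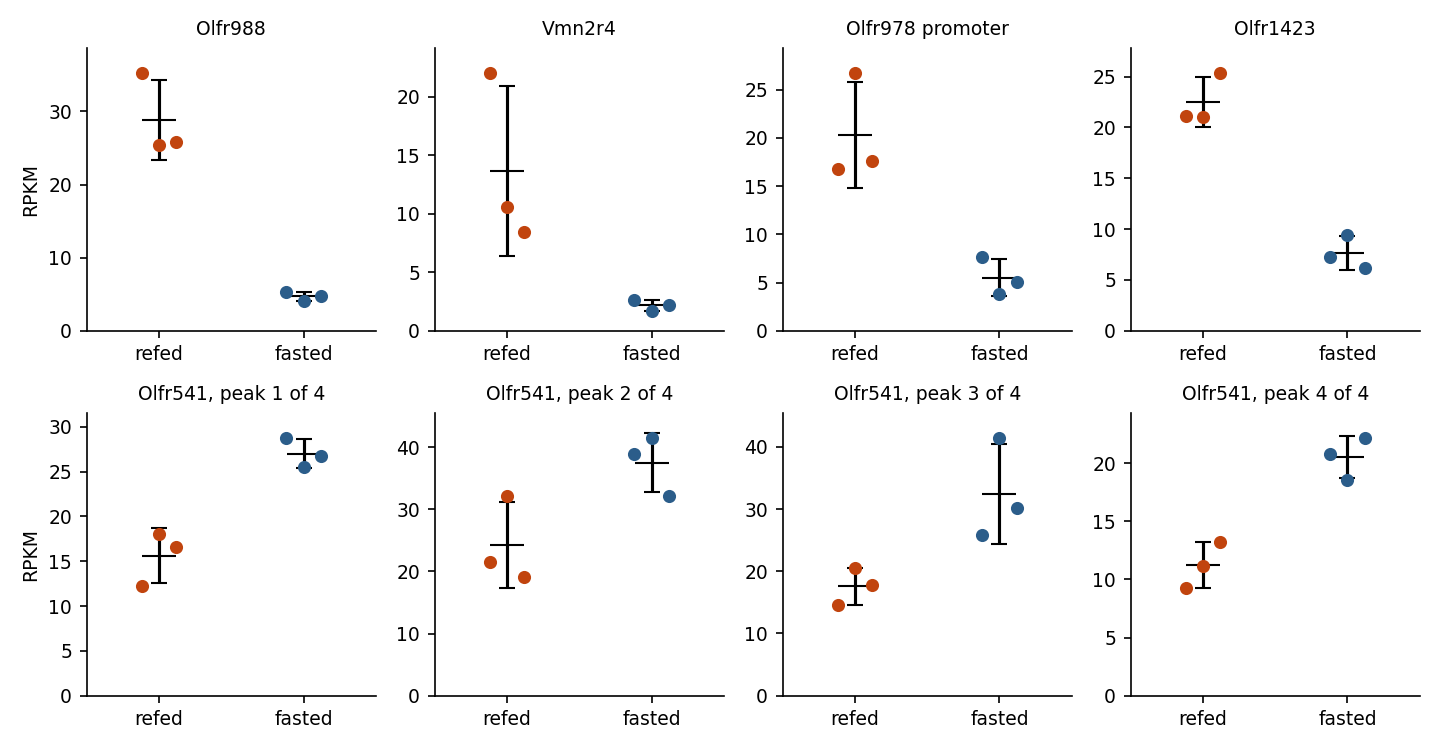
RPKM (vertical, from 0) in each refed (left, red) and fasted (right, blue) library at 4 called receptor peaks (top row) and the 4 Olfr541 peaks beside Cyp2e1 in chromosome order (bottom row), with mean and SD over 3 libraries in black. In the top row the refed points lie above the fasted points, and in the bottom row they lie below, by a narrow margin for peak 2.

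Another uncalled peak with lower signal in refed liver was that of Olfr1346 on chromosome 7 (6430364 to 6430846), with 5.95, 4.47 and 4.87 RPKM in refed libraries, against 15.4, 12.9 and 14.7 RPKM in fasted libraries. Its groups were well apart, but limma gave an adjusted p of 0.0666 (log2 change -1.50 ± 0.37 SE), while edgeR (0.00604) and DESeq2 (0.0470) called it. With a filter of at least 10 reads a library limma called it too (0.0461). A Vmn2r-ps159 peak on chromosome X (120818621 to 120819644) had 1, 0 and 1 reads in refed libraries, against 2 in each fasted library. The ratio was 0.335 with an exact 95% counting interval of 0.0330 to 1.87 (limma adjusted p = 0.0563).

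Further peaks that the authors' deposited table lists as higher, named for that reason, were those of Olfr199, Olfr221, Vmn2r1, Vmn2r84 and Vmn2r93. Their log2 changes ran from 0.66 to 1.34 and none passed in limma, with adjusted p from 0.0671 to 0.125, while edgeR called those of Olfr199, Olfr221 and Vmn2r84. At the Vmn2r84 peak on chromosome 10, in an ERVL element, refed libraries had 34.2, 33.6 and 28.6 RPKM, against 24.3, 15.6 and 16.9 RPKM in fasted libraries.

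Some olfactory receptors have been studied outside the nose, as in sperm, muscle, kidney or pancreas. Of 15 such genes listed, 6 owned 12 peaks, and limma called none, with 2 at an unadjusted p under 0.05, where 1.23% and 14.5% of all peaks passed. Olfr544, studied in mouse liver and pancreas, and Olfr734, studied as a receptor for a glucose-raising hormone in mouse liver, owned no peak. Olfr16, whose product is known from mouse sperm and muscle, owned 5 peaks on chromosome 1, on both sides of its start. On 1 side the next gene in RefSeq is Apcs, a gene of the acute-phase protein serum amyloid P. A peak on that side (174860081 to 174860411, a MaLR repeat) had 29.7, 11.2 and 18.1 RPKM in refed libraries, against 6.23, 4.71 and 6.65 RPKM in fasted libraries. The groups did not overlap (log2 difference 1.65 ± 0.40 SE, limma adjusted p = 0.0640), and edgeR (0.00932) and DESeq2 (0.0463) called this peak. The strongest Olfr16 peak (174919822 to 174921269), on the side away from Apcs, had 22.7, 15.4 and 20.5 RPKM in refed libraries, against 15.5, 15.5 and 19.6 RPKM in fasted libraries, with overlap.

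Olfr2, also known as the receptor I7, had a peak in exon 2 of 2 on chromosome 7 (114144331 to 114144739) with 27.5, 21.9 and 26.7 RPKM in refed libraries, against 15.1, 9.15 and 19.1 RPKM in fasted libraries. Refed values were all higher without passing (log2 change 0.87 ± 0.27 SE, limma adjusted p = 0.141). Olfr1393 lay next to Mgat1, a gene of protein glycosylation, and its strongest peak (chromosome 11, 49080026 to 49080800) had 24.7, 25.1 and 25.1 RPKM in refed libraries, against 26.1, 18.5 and 23.04 RPKM in fasted libraries. The strongest peak of Olfr90 outside its exon (37220333 to 37220703) had 18.7, 11.7 and 12.1 RPKM in refed libraries, against 16.1, 13.5 and 15.2 RPKM in fasted libraries. At Olfr691 the single peak, in an L1Md element on chromosome 7 (112498860 to 112499212), held no read in any library, which allows up to 0.351 RPKM at 3 reads over the 6 libraries.

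For the counts on genes that work with these receptors in sensory neurons, the background is that limma called 1.23% of all peaks in either direction and that 14.5% had an unadjusted p under 0.05. At that rate lists of this size hold few calls or none. Odorant signalling, the pathway from the G protein to the cyclic nucleotide channel, had 56 peaks at 16 of 17 genes, with 0 called and 8 at an unadjusted p under 0.05 (edgeR called 2 higher). Its smallest p was at an intronic peak of Pde4a, a cyclic AMP phosphodiesterase gene, with means of 20.9 ± 1.9 RPKM in refed and 9.63 ± 2.39 RPKM in fasted liver (SD, n = 3 each; limma adjusted p = 0.0666; edgeR 0.0207). Factors of receptor choice, such as Ebf1, Lhx2 and Ldb1, had 50 peaks at 15 of 17 genes, with 0 called and 3 at an unadjusted p under 0.05 (edgeR called 1 higher and 1 lower). An intronic Ebf1 peak averaged 7.79 ± 1.18 RPKM in refed and 16.8 ± 3.4 RPKM in fasted liver (limma adjusted p = 0.117; edgeR 0.0447). Vomeronasal signalling genes and receptors of other families had 20 peaks at 8 of 19 genes, with 0 called by either tool and 1 at an unadjusted p under 0.05. The markers of olfactory sensory neurons had 28 peaks, with 0 called by either tool and 2 at an unadjusted p under 0.05. The 12 hepatocyte markers had 122 peaks with 31 at an unadjusted p under 0.05, of which 1 was called higher, at Apoa1, and 9 lower, at Alb, Apoa2 and Tat, beside 0.802% and 0.427% of all peaks. The difference between lists was not tested. Medians of log2 change were 0.01 for odorant signalling, -0.01 for choice factors, 0.13 for vomeronasal genes, 0.03 for neuron markers and 0.04 for hepatocyte markers, beside 0.00 over all peaks.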

How the data were processed

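ATAC-seq libraries, 3 from refed and 3 from fasted liver, were grouped by the labels' treatment. The submitters' processing notes name mm9, HOMER, DESeq2, MACS2, SAMtools, Bowtie2, cutadapt and FastQC, without versions or a statement on the transposase offset. Per the file headers, uniquely placed reads without duplicates were counted over 1 merged peak set. The deposited table holds RPKM and log2 RPKM, scaled by the authors to reads in listed peaks, with empty peaks at the value of 0.9 reads. This scale cannot show whether libraries differ in how many reads fall outside peaks. Read counts recovered from the RPKM steps were whole, within 0.01 reads, at 100% of values and equalled the deposited counts at all 3314 peaks of the authors' edgeR table, whose p-value, FDR and log2 fold change were used as the authors' own.

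Limma 3.58.1 (lmFit, eBayes with an intensity trend) was fitted to log2 RPKM of all 74076 peaks, refed minus fasted, with Benjamini-Hochberg adjustment over all peaks and a threshold of 0.05. EdgeR 4.0.16 (quasi-likelihood, TMM, filterByExpr) and DESeq2 1.42.0 were run on the recovered counts in R 4.3.3, and the fits were tested on simulated data. Alternatives were other scalings and filters, log2(RPKM + 1) and leaving out each library. Named peaks were the called ones, the 4 with the smallest p in each direction, the 5 strongest, the strongest promoter-class peak per family, the 5 nearest a start with a mean of at least 10 reads, the strongest of each receptor studied outside the nose and of Vmn1r and Vmn2r, and the 3 with the largest ratio of highest to lowest library. Others are marked where named. The members and gene lists were chosen with earlier results of these data known. Symbols were matched by Entrez ID to RefSeq for 434 of 434 genes. RefSeq coordinates are printed for promoter letters only, and RefSeq gene order gave the neighbouring genes named as such. Intervals and floors cover counting error only.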

Additional observations from a re-analysis of the deposited data

How the results depend on the processing

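Numbers of called receptor peaks were small and moved with the method. The 7 higher and 0 lower calls became 4 and 2 with DESeq2, 10 and 4 with edgeR, 3 and 1 after quantile normalization, and 0 and 0 where limma used no trend. Median centring gave 9 and 3, the filter on 10 reads 5 and 1, an adjusted p under 0.1 13 and 4, and an unadjusted p under 0.05 81 and 14. A limma fit without empty peaks gave 5 and 0. Over all peaks the 594 higher and 316 lower calls became 1573 and 876 with edgeR, 0 and 0 without a trend (where limma gave no call at an adjusted p under 0.05), 71 and 23 with quantile normalization, 886 and 607 with median centring, 1483 and 747 at an adjusted p under 0.1, and 6600 and 4178 at an unadjusted p under 0.05. Leaving out 1 library gave 1 to 8 higher and 0 to 4 lower receptor peaks, and 77 to 970 higher and 48 to 211 lower peaks in all. The cause was not tested.

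The share of reads in receptor peaks, 0.276% in refed and 0.237% in fasted libraries, was 0.0851% and 0.0720% within 10 kb of the start, 0.150% and 0.132% outside repeats, 0.269% and 0.231% without peaks in transcripts of other genes, and 0.245% and 0.209% without chromosome X, fewer peaks in each case. The median of 1.27 RPKM was 6.24 within 10 kb, 5.19 outside repeats, 3.65 without chromosome X and 5.57 without empty peaks. Leaving out chromosome X or empty peaks was chosen after seeing the data. The basic annotation column names no repeats, so 0 of the 693 repeat peaks appear as such there. The direction turned at 4 uncalled peaks near 0. Leaving out 1 library at a time gave log2 changes of -0.24 to 0.13 at the Olfr1033 promoter, -0.32 to 0.017 at the intergenic Olfr90 peak, -0.46 to 0.0043 at Vmn1r66 and -0.15 to 0.16 at the empty Olfr691 peak. The last was also -0.059 with quantile normalization, -0.034 with median centring and -7.2e-05 on the log2(RPKM + 1) scale. No paired analysis was possible because refed and fasted libraries share no replicate number. Depth limited the count tests: edgeR's filter kept 296 of 1077 receptor peaks, and DESeq2 gave an adjusted p for 239.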
